A study of Mus musculus with 117 samples.

Results

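CC chemokines are small secreted proteins, named for adjacent cysteines near their amino terminus, that bind G protein-coupled receptors and direct the migration of leukocytes. In injured CNS tissue they are best known for drawing blood monocytes and T cells into the lesion, and NF-kB signalling downstream of Tnf, Il1 and Toll-like receptors is a textbook driver of their transcription. The 9 genes followed here, Ccl2, Ccl3, Ccl4, Ccl5, Ccl6, Ccl7, Ccl8, Ccl9 and Ccl12, were taken by name from the 27179 genes of the count table. They are taken here as the ligands of Ccr2 (Ccl2, Ccl7 and Ccl12), a ligand of mouse Ccr8 (Ccl8), the Ccr1 ligands Ccl6 and Ccl9, the macrophage inflammatory proteins Ccl3 and Ccl4, and Ccl5, a T cell attractant.

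Ribosome-associated RNA of astrocytes was collected from mouse spinal cord by RiboTag, in which Cre switches on a hemagglutinin-tagged ribosomal protein and the tagged ribosomes are pulled down with an antibody. The solution left after the pulldown of the same tissue, the flow-through, was sequenced as the RNA of other cells. Aldh1l1-CreERT2-RiboTag mice carry a tamoxifen-inducible Cre under Aldh1l1 regulatory sequences. Females of this line were collected uninjured (4 mice) and 2 d (5 mice), 5, 14, 28, 42 and 70 d (4 mice each) after spinal cord injury (SCI), a complete thoracic crush, and males at 5 and 14 d (4 mice each). The 73.12 GFAP Cre-RiboTag line, here called mGfap, expresses Cre constitutively from the mouse Gfap promoter, so that the tag can also mark cells descended from Gfap-expressing progenitors. It was collected 14 d after SCI (5 females) and, uninjured, at postnatal day (P) 63 (3 males and 2 females) with flow-through, and at P0, P3, P7, P14, P21 and P35 (3 to 5 mice each) as RiboTag only. The P0 mice were all labelled male, and each later age held both sexes. All injured mice were young adults of C57BL/6 background, all mice carried the RiboTag allele, and the injured block included the lesion core. Of the 117 libraries, 70 were RiboTag and 47 flow-through. For 5 d replicate 4 the flow-through library carries the sex label male and the RiboTag library of that number female, and both were analysed as female.

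All 9 genes lie on chromosome 11 (GRCm38) in 2 groups separated by 1408978 bases. The first group spans 81.2 kb and holds Ccl2 (82035577-82037452), Ccl7 (82045712-82047525), Ccl12 (82101845-82103399) and Ccl8 (82115185-82116799), all on the plus strand. The second spans 138.9 kb and holds Ccl5 (83525778-83530518), Ccl9 (83572917-83578636), Ccl6 (83587886-83593087) and Ccl3 (83647843-83649378) on the minus strand and Ccl4 (83648624-83664683) on the plus strand. Exons of Ccl3 and Ccl4 overlap by 57 bases on opposite strands, 7.22% of the exon bases of Ccl3 and 6.46% of those of Ccl4, and the counting was not stated to use strand, so reads in that stretch cannot be told apart. The other 7 genes share no exon base with another gene.

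RefSeq start-site windows (GRCm38.p6, 250 bases before to 50 bases after the start) were matched for 5 of the 9 genes, Ccl3, Ccl6, Ccl8, Ccl9 and Ccl12. The stretches below are shown because Ccl9 holds the only match to the NF-kB motif among these 5, and because the neighbours Ccl12 and Ccl8 carry a match to TATAAA, the TATA box, at nearly the same distance from the start. Capitals mark matches to the NF-kB motif or to the pattern TGANTCA (N, any base) in Ccl9, and to TATAAA in Ccl12 and Ccl8. Both strands were searched.
Ccl9, chr11:83578662-83578691, minus strand, 55 to 26 bases before the start: tcTGAATCAatttgaactttGGAAAGCCCC
Ccl12, chr11:82101805-82101834, plus strand, 40 to 11 bases before the start: tttgtgtctTATAAAagtcagatggaactt
Ccl8, chr11:82115145-82115174, plus strand, 40 to 11 bases before the start: ctgctcccTATAAAaggcagattagagcct
Across all 32851 RefSeq windows of this length, 4.51% held the NF-kB motif, 7.81% TGANTCA and 13.6% TATAAA, which Ccl9 also matched 92 bases before its start. These matches describe letters only, and no match in the other windows says nothing about factor binding there.

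Total counts per library ranged from 40710428 to 136008399. Levels are given as CPM, counts scaled to library size with TMM factors over all 117 libraries, and levels of different genes are compared only as CPM per kilobase of exon. The label of astrocyte RNA was checked with 12 astrocyte genes, all detected in every group, whose summed CPM was higher in the RiboTag than in the flow-through library of each mouse, by a mean of 3.06 to 4.27 on the log2 scale over the groups with both. A list of 14 myeloid genes, all detected in every group given here, summed to a mean of 61.9 CPM in uninjured Aldh1l1 RiboTag libraries, 1586.6-3153.2 after 2 d, 7832.3-9640.0 after 5 d, 5603.0-8179.2 after 14 d and 907-2318.1 after 70 d. In mGfap RiboTag libraries the same list summed to 32.9-42.4 CPM at P63 and 214-1303.7 at 14 d. RNA of this list therefore moved with injury in the same RiboTag libraries as the chemokines below, and its part in their values was not tested. The study reports that Tyrobp and Spi1, both in the list, can be expressed by reactive astrocytes, at lower levels than in other cells. The source of the list's RNA in RiboTag libraries was not tested either. In such bulk samples, fewer cells of a type and less RNA per cell cannot be told apart.

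In Aldh1l1 astrocyte libraries all 9 CC chemokines rose after SCI and were still above uninjured levels at 70 d. The early response was dominated by Ccl6, Ccl2, Ccl9 and Ccl7, which peaked at 2 or 5 d and then fell. Ccl8 followed the opposite course and was highest at 70 d, and Ccl5 rose in a second step between 5 and 14 d. Each of the 9 genes was called higher than in uninjured astrocytes at each of the 6 times (edgeR's quasi-likelihood test, Benjamini-Hochberg adjusted p under 0.01), whereas of all genes tested 30.2% were called higher 2 d after SCI, 28.7% after 5 d, 24.5% after 14 d, 22.8% after 28 d, 23.3% after 42 d and 23.9% after 70 d. The median log2 fold change of the 9 was 7.42 at 2 d and 5.34 at 70 d, beside -0.04 and 0.05 for all genes. The 6 comparisons share the 4 uninjured libraries.

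**Figure D1:**
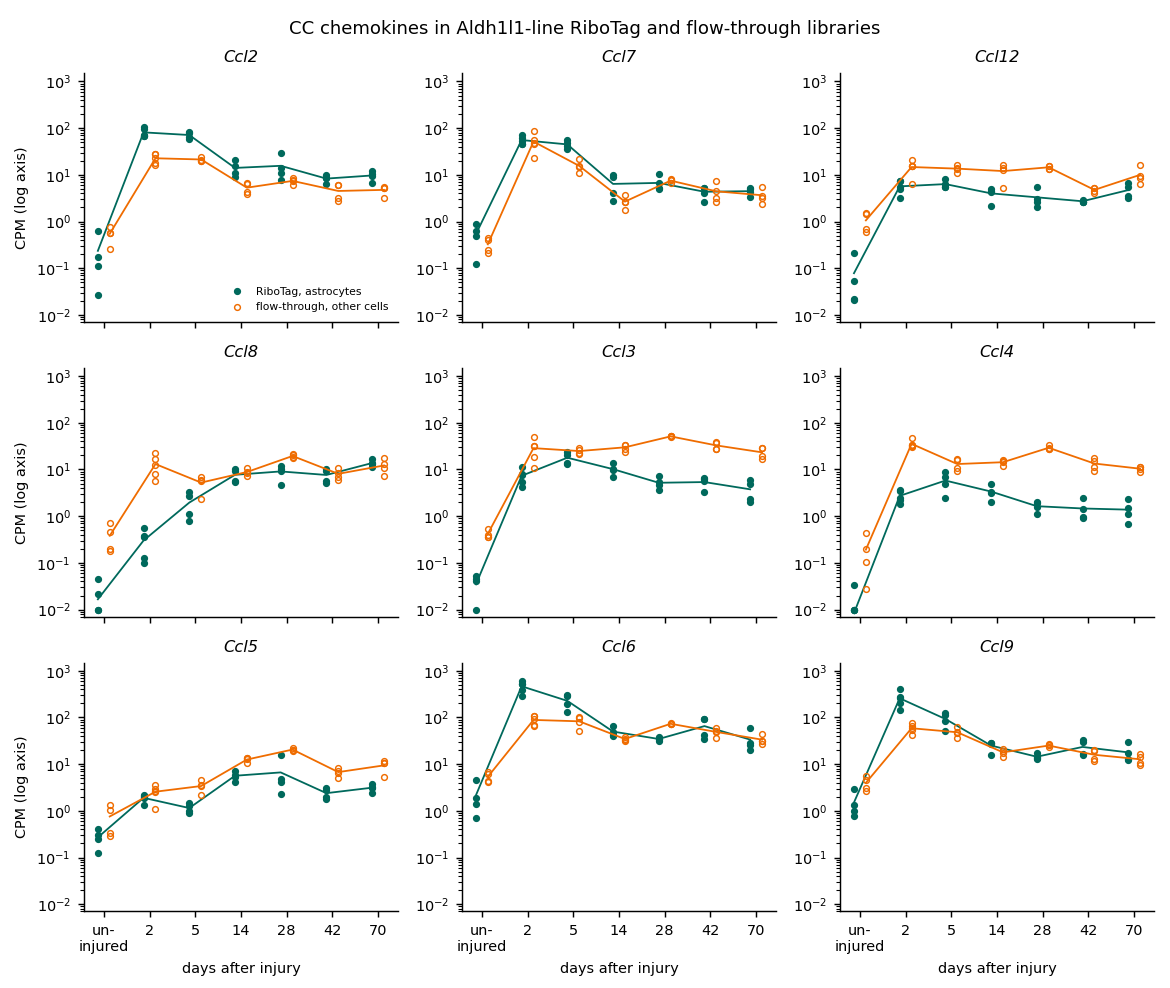
Level of each CC chemokine in every Aldh1l1 female library, in CPM on a log axis, against time after SCI, with RiboTag libraries as filled points, flow-through libraries as open points, lines through the group means and values of 0 drawn at 0.01. Ccl2, Ccl6, Ccl7 and Ccl9 reach their highest RiboTag levels at 2 or 5 d, Ccl8 its highest at 70 d, and every open point of Ccl4 lies above the filled ones of its time from 2 to 70 d.

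Ccl2, the main chemoattractant for Ccr2-bearing monocytes, was close to absent from uninjured astrocytes, with 0.112, 0.628, 0.176 and 0.0263 CPM. At 2 d the 5 RiboTag libraries held 106, 66.4, 96.6, 67.8 and 69.7 CPM, and the matching flow-through libraries 28.1, 16.4, 17.8, 23 and 27.9 CPM. No range overlapped: every injured library exceeded every uninjured one, and every RiboTag library at 2 d exceeded every flow-through library. The RiboTag increase at 2 d was 8.39 ± 0.53 on the log2 scale (SE, adjusted p = 5.1e-13). At 5 d the astrocyte values were 65.4, 84.5, 77.2 and 57.9 CPM, a difference from 2 d of -0.21 ± 0.34 that did not pass the test. By 14 d they had dropped to 20.5, 11.2, 15.7 and 8.87 CPM, a fall of -2.36 ± 0.38 from 5 d (adjusted p = 2.5e-05), and at 70 d they stood at 12.3, 6.81, 9.47 and 10.2 CPM, still 5.34 ± 0.50 above uninjured.

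Ccl7, its neighbour and a further Ccr2 ligand, took a similar course in astrocytes. Its RiboTag values were 0.894, 0.628, 0.124 and 0.5 CPM uninjured, 73.0, 45.8, 62.1, 52.0 and 45.3 CPM at 2 d and 3.41, 5.34, 4.94 and 4.2 CPM at 70 d, with no overlap between injured and uninjured libraries. The increase at 2 d was 6.71 ± 0.46 (adjusted p = 1.8e-12), and the fall from 5 to 14 d was -2.83 ± 0.37 (adjusted p = 1.7e-06). Ccl12, the remaining Ccr2 ligand, stayed at a lower and flatter level. Its RiboTag values were 0.0224, 0.217, 0.0207 and 0.0526 CPM uninjured, 7.26, 3.17, 5.45, 7.41 and 5.02 CPM at 2 d and 6.65, 3.49, 5.48 and 3.25 CPM at 70 d. It was 6.15 ± 0.48 above uninjured at 2 d and 5.91 ± 0.49 at 70 d, and none of its 5 steps between successive times was called.

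Ccl8, which lies next to Ccl12 and signals through Ccr8 in the mouse, was the late member. Uninjured RiboTag libraries held 4, 2, 0 and 0 counts. The level was 0.547, 0.384, 0.126, 0.351 and 0.0989 CPM at 2 d, 0.777, 2.69, 1.11 and 3.24 CPM at 5 d, 10.2, 5.72, 9.37 and 5.49 CPM at 14 d, and 17, 11.4, 13.5 and 13.1 CPM at 70 d. The ranges at 2, 5, 14 and 70 d rose in order and did not overlap, and those at 28 d (4.76-12.1 CPM) and 42 d (5.18-10.2 CPM) overlapped that at 14 d. The 28 d range also overlapped that at 70 d, and no step of Ccl8 after 14 d was called. Ccl8 was called higher from 2 to 5 d (2.67 ± 0.44, adjusted p = 1.3e-05) and from 5 to 14 d (1.96 ± 0.42, adjusted p = 0.00056). Its ratio to the 6 uninjured counts was 17.8 at 2 d (95% counting interval 8.18 to 48.5) and 812 at 70 d (373 to 2213.0), where the fitted difference was 9.57 ± 0.70 (adjusted p = 1.3e-11). Intervals of this kind cover counting error only.

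The neighbours Ccl6 and Ccl9, myeloid-attracting ligands of Ccr1, rose steeply at 2 d. Ccl6 rose from 4.54, 1.93, 0.715 and 1.42 CPM in uninjured astrocytes to 611.8, 286.2, 524.9, 387.7 and 517.7 CPM at 2 d, an increase of 7.77 ± 0.55 (adjusted p = 4.5e-12). Ccl9 rose from 2.96, 1.35, 0.767 and 0.974 CPM to 405.2, 144.4, 261.3, 205.9 and 271.5 CPM, an increase of 7.42 ± 0.49 (adjusted p = 1.1e-12). In neither gene did uninjured and 2 d libraries overlap. Ccl9 was called lower from 2 to 5 d (-1.49 ± 0.36, adjusted p = 0.0011), where Ccl6 differed by -1.06 ± 0.39 and missed the threshold (adjusted p = 0.027). Both fell from 5 to 14 d, Ccl6 by -2.21 ± 0.42 (adjusted p = 0.0002) and Ccl9 by -1.91 ± 0.38 (adjusted p = 0.00026). At 70 d, Ccl6 stood at 20.5, 25.7, 59.1 and 29 CPM and was still 4.00 ± 0.47 above uninjured.

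Ccl3 and Ccl4 are macrophage inflammatory proteins, made by activated myeloid cells, and Ccl5 attracts T cells. Ccl3 had 4, 0, 4 and 4 counts in the uninjured RiboTag libraries and 7.61, 4.14, 8.18, 5.35 and 11.4 CPM at 2 d, a ratio of 216 (95% counting interval 124 to 419). It rose further to 13.9, 20.5, 23.9 and 13.2 CPM at 5 d, a step of 1.27 ± 0.31 (adjusted p = 0.0013). Ccl4 had 3, 0, 0 and 0 counts uninjured and 3.4, 1.86, 2.23, 2.44 and 3.69 CPM at 2 d, a ratio of 321.7 with a wide counting interval of 110.1 to 1559.9. Ccl5 was the gene with the smallest increase at 2 d. It went from 0.246, 0.303, 0.124 and 0.408 CPM to 1.94, 1.92, 2.13, 1.33 and 2.19 CPM, 2.84 ± 0.42 on the log2 scale (adjusted p = 7e-07). It then stood at 0.979, 1.47, 0.903 and 1.24 CPM at 5 d and 5.31, 7.16, 5.95 and 4.15 CPM at 14 d, a step up of 2.27 ± 0.39 (adjusted p = 3.6e-05) with no overlap. A list of 10 T and NK cell genes, each with reads, summed to 4.96-7.02 CPM in the RiboTag libraries at 5 d and 10.8-13.1 CPM at 14 d, and its part in the Ccl5 step was not tested.

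Of the steps between successive times, 3 of the 9 genes were called from 2 to 5 d (41.4% of all genes) and 6 from 5 to 14 d (25.3%). From 14 to 28 d (7.40%), 28 to 42 d (1.67%) and 42 to 70 d (12.6%), edgeR called 0 of the 9. At an unadjusted p under 0.05 these steps held 2, 3 and 3 of the genes, and DESeq2 called 0, 1 and 0. The gene called by DESeq2 from 28 to 42 d was Ccl5, at -1.46 ± 0.38 and an adjusted p of 0.021 in edgeR. Its 28 d RiboTag values were 15.4, 4.84, 2.26 and 4.12 CPM, so that 1 mouse stood far above the others.

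Per kilobase of exon, the makeup of the family turned over with time. The 9 genes together came to 3.7 ± 1.99 CPM per kb in uninjured astrocytes (SD, n = 4), 607.3 ± 156.5 at 2 d (n = 5), 380 ± 98.9 at 5 d (n = 4) and 94.9 ± 19.8 at 70 d (n = 4). Ccl6 provided 53.1% ± 3.03 of this sum at 2 d, followed by Ccl2 with 16.9% ± 2.41, Ccl9 with 13.8% ± 1.79 and Ccl7 with 11.7% ± 1.89. In CPM per kb at 2 d the range of Ccl6 lay above that of Ccl2, whereas the ranges of Ccl2 and Ccl9, and of Ccl9 and Ccl7, overlapped. At 70 d Ccl8 led with 29% ± 5.78, then Ccl6 with 23.9% ± 7.49 and Ccl2 with 12.9% ± 3.1, and the range of each in CPM per kb overlapped that of the next.

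**Figure D2:**
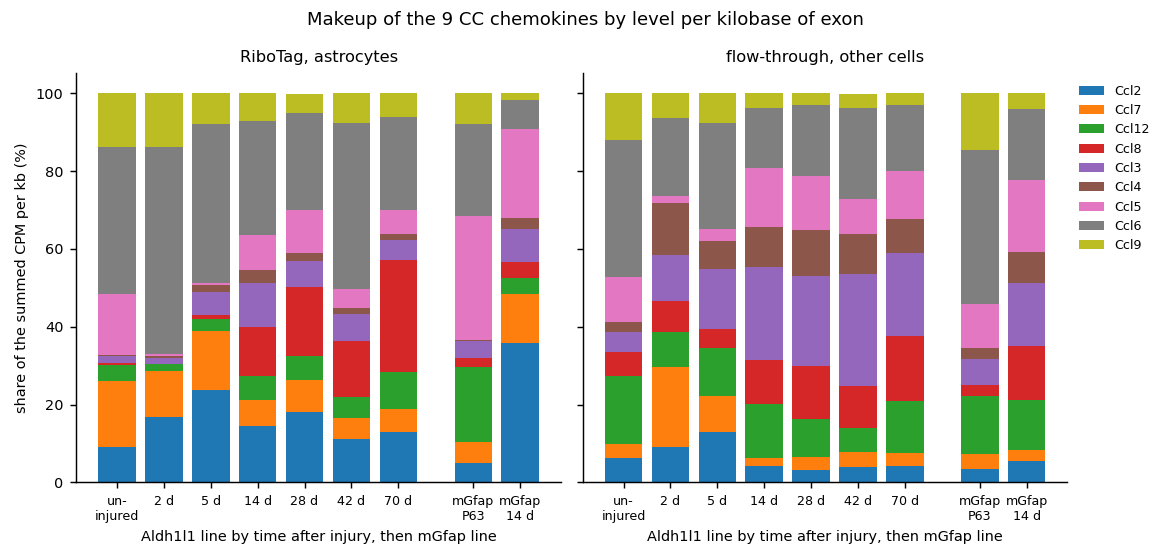
Share of each gene in the summed CPM per kilobase of exon of the 9 CC chemokines, as stacked bars of mean shares in percent, for RiboTag (left) and flow-through libraries (right) by line and time. Ccl6 takes 53.1% of the Aldh1l1 RiboTag bar at 2 d and Ccl8 29% at 70 d, and Ccl2 takes 35.9% of the mGfap RiboTag bar at 14 d but 5.47% of its flow-through bar.

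Flow-through RNA also gained all 9 genes at each of the 6 times, beside 32.6% of all genes called higher after 2 d, 27.7% after 5 d, 24.6% after 14 d, 26.4% after 28 d, 25.3% after 42 d and 21.8% after 70 d. At 2 d the largest increases in flow-through were those of Ccl4 (7.57 ± 0.41) and Ccl7 (7.32 ± 0.44), and the smallest that of Ccl5 (1.77 ± 0.36). In the fit of these 2 groups alone the Ccl5 difference was 1.69 (adjusted p = 0.025). The summed level of the 9 genes was 11 ± 3.9 CPM per kb uninjured and 308 ± 70.3 at 2 d, beside 607.3 ± 156.5 in astrocytes, and 140 ± 26.6 at 70 d. At 2 d, Ccl7 (20.6% ± 7) and Ccl6 (20% ± 0.802) held the largest shares of the flow-through sum, where Ccl6 led the RiboTag sum with 53.1%. At 14 d Ccl3 led in flow-through with 24% ± 1.17 and Ccl6 in RiboTag RNA with 29.5% ± 5.35.

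RiboTag and flow-through libraries of the same mice were compared to ask in which of these RNA fractions each chemokine took the larger share. Marker genes of myeloid cells and neutrophils were also higher in RiboTag RNA in some groups, as given below. A higher RiboTag level therefore does not by itself assign a gene to the tagged cells. After SCI the genes split. Ccl2 was higher in the RiboTag than in the flow-through library of every injured Aldh1l1 female, Ccl3, Ccl4 and Ccl12 were lower in every one, and Ccl6 and Ccl9 were higher in RiboTag RNA at 2 d and lower at 28 d. Called differences covered 4 of the 8 genes tested in uninjured mice (62.1% of all genes), 7 of 9 after 2 d (55.7%), 7 after 5 d (64.4%), 5 after 14 d (62.4%), 6 after 28 d (64.4%), 4 after 42 d (46.8%) and 4 after 70 d (45.7%), shares that lie on both sides of the background.

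Ccl2 was 1.79 ± 0.19 higher in RiboTag than flow-through RNA at 2 d (adjusted p = 7.2e-06), 1.62 ± 0.11 at 5 d (2e-08), 1.30 ± 0.26 at 14 d (0.00075) and 0.98 ± 0.23 at 70 d (0.0033). It missed the threshold at 28 d (1.04, adjusted p = 0.035) and 42 d (0.87, adjusted p = 0.017), although the RiboTag library was the higher of the pair in 4 of 4 mice at each. At 28 d the groups overlapped, with 7.93 CPM in the lowest RiboTag and 8.42 in the highest flow-through library, and the smallest log2 ratio of a pair was 0.03. At 70 d the call was lost without RiboTag replicate 1 or 4, with adjusted p from 0.0014 to 0.012 over the 8 fits that each left out 1 library. In uninjured mice Ccl2 differed by -1.22 ± 0.77 and was higher in the RiboTag library of 1 of 4 mice. Ccl6 and Ccl9 were 2.34 ± 0.22 and 2.07 ± 0.25 higher in RiboTag RNA at 2 d (adjusted p = 2.3e-06 and 1.8e-05), in 5 of 5 mice. At 28 d both were lower, Ccl6 by -1.12 ± 0.07 (adjusted p = 2.7e-08) and Ccl9 by -0.83 ± 0.10 (adjusted p = 9.2e-06), in 4 of 4 mice. Neither was called later. The mean log2 ratio over mice of Ccl9 was 0.52 at 42 d, above 0 in 3 of 4 mice, and 0.43 at 70 d, above 0 in 4 of 4, and that of Ccl6 was 0.30 (3 of 4) and -0.09 (1 of 4). Ccl7 differed by 0.05 at 2 d (95% interval -0.56 to 0.67, not called) and was 1.41 ± 0.19 higher in RiboTag RNA at 5 d (adjusted p = 3.5e-05).

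Ccl4 was the member most reduced in RiboTag RNA at 28 d, by -4.20 ± 0.17 (adjusted p = 1e-09), and was lower by -3.76 ± 0.22 at 2 d and -2.97 ± 0.32 at 70 d. Its flow-through libraries held 47, 33.4, 34, 32.4 and 30.4 CPM at 2 d, each above every RiboTag value. Ccl3 ran in parallel, with differences of -2.02 ± 0.39 at 2 d, -3.34 ± 0.18 at 28 d and -2.68 ± 0.34 at 70 d. Both came closest to the flow-through at 5 d, where Ccl3 differed by -0.59 (adjusted p = 0.0089) and Ccl4 by -1.29 (adjusted p = 0.0073), and these calls were lost in 6 and 5 of the 8 fits that each left out 1 library. Ccl8 went from -5.49 ± 0.56 at 2 d (adjusted p = 4.6e-06) to -0.30 at 14 d (95% interval -0.75 to 0.15) and 0.12 at 70 d (-0.42 to 0.66), neither of which was called. Ccl12 was lower in RiboTag RNA at 2 d by -1.43 ± 0.31 (adjusted p = 0.0015) and at 28 d by -2.17 ± 0.26 (adjusted p = 1.9e-05).

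Fits with the mouse as a block changed some of these calls. At 14 d the block added Ccl6 (0.40, adjusted p = 0.0040), Ccl7 (1.03, adjusted p = 0.00052) and Ccl9 (0.35, adjusted p = 0.0038), all higher in RiboTag RNA. This brought the count to 8 of 9, where the fit without the block already called 62.4% of all genes. At 5 d it added Ccl8 (-1.64, adjusted p = 2.5e-06) and Ccl9 (0.77, adjusted p = 1.8e-06), in uninjured mice Ccl6 (-1.60, adjusted p = 0.0020), and at 70 d Ccl12 (-1.11, adjusted p = 0.00027).

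**Figure D3:**
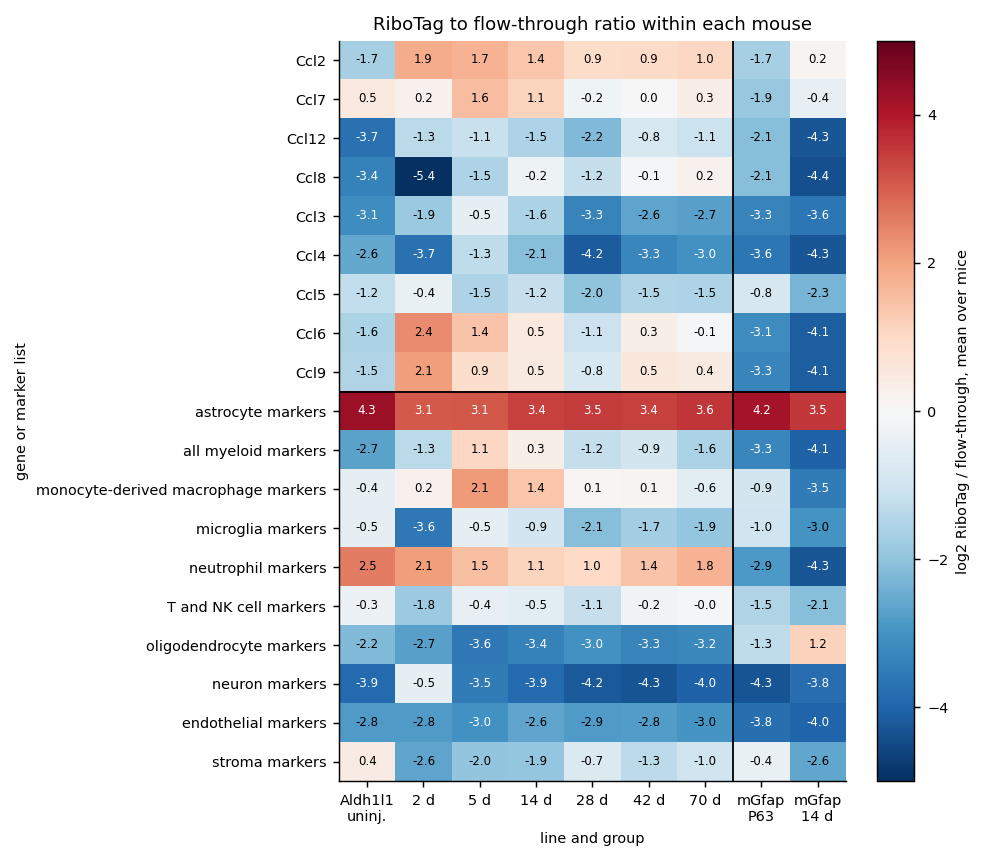
Mean over mice of the log2 ratio of RiboTag to flow-through level, as a heat map of the 9 CC chemokines and of summed marker gene lists (rows) in 9 groups of mice by line and time (columns), with red for higher in RiboTag and blue for higher in flow-through. The astrocyte list is red in every group (3.08 to 4.27), Ccl2 is red in every injured Aldh1l1 group and near 0 in the injured mGfap group (0.15), and the myeloid lists and Ccl6 and Ccl9 go from red or pale at 5 and 14 d in the Aldh1l1 line to blue in the injured mGfap group.

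Marker lists measured on the same per-mouse scale moved too. The log2 ratio of the 14 myeloid genes was -2.66 in uninjured Aldh1l1 mice, -1.35 after 2 d, 1.05 after 5 d, 0.28 after 14 d and -1.58 after 70 d. A list of 10 genes of monocyte-derived macrophages, led by Lyz2, gave 0.23 at 2 d, 2.14 at 5 d and 1.38 at 14 d. The 12 neutrophil genes, led by S100a9, were higher in the RiboTag than in the flow-through library of every Aldh1l1 mouse, injured or not, with 119-492 CPM in uninjured RiboTag libraries against 22.3-75.5 CPM in flow-through. A list of 8 microglial genes stood at -3.56 at 2 d. A list of neuronal genes stood at -0.47 at 2 d, above 0 in 2 of 5 mice, against -3.87 in uninjured mice and -3.49 at 5 d. The 2 d flow-through libraries also spread most among the Aldh1l1 groups, with a coefficient of variation of 42.7%. The 2 fractions at 2 d were thus unlike those of other times. The mean ratio of Ccl2 was 1.85 at 2 d and 1.02 at 70 d. At these 2 times the myeloid list stood below 0 and the astrocyte list above 3. The neutrophil list stood at 2.08 and 1.75, above Ccl2 at both, and the macrophage list at 0.23 and -0.57. What these lists contribute to the chemokine ratios was not tested.

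The change after SCI itself was larger in RiboTag than in flow-through RNA for 4 of the 9 genes at 2 d (30.1% of all genes called with a larger change), 7 after 5 d (17.7%), 5 after 14 d (14.5%), 2 after 28 d (15.5%), 5 after 42 d (12.6%) and 4 after 70 d (8.80%). Ccl2 passed this test at all 6 times, with a difference between 2.15 ± 0.55 at 42 d and 3.2 ± 0.53 at 2 d, and the 42 d value was 3.28 without uninjured RiboTag replicate 2. Ccl8 passed from 5 d on and reached 4.63 ± 0.89 at 70 d (adjusted p = 5.3e-05). Uninjured Ccl2 was 0.0263-0.628 CPM in RiboTag and 0.258-0.774 CPM in flow-through libraries, which overlap, and Ccl8 started from 6 RiboTag counts in all. With the mouse as a block, Ccl3 was added at 2 d (1.87, adjusted p = 0.0021) and 14 d (2.09, adjusted p = 0.0017), Ccl12 at 28 d (1.73, adjusted p = 0.0011) and Ccl6 at 70 d (1.51, adjusted p = 0.00091).

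The mGfap line offered RiboTag RNA of a second line at 14 d, and there Ccl2, Ccl5 and Ccl7 took the largest shares of the family. All 9 genes rose from P63 to 14 d after SCI in mGfap RiboTag RNA (27.7% of all genes called higher) and in mGfap flow-through RNA (33.6%). In RiboTag RNA they were led by Ccl4 (7.20 ± 0.96, from 2 counts in all at P63) and Ccl2 (6.93 ± 0.57, adjusted p = 1.5e-08). Ccl7 rose by 5.36 ± 0.52 and Ccl5 by 3.49 ± 0.33, whereas Ccl6, Ccl9 and Ccl12 gained 2.63 ± 0.59, 2.06 ± 0.50 and 2.07 ± 0.61. The call of Ccl12 was lost in 7 of the 10 fits that each left out 1 library (adjusted p from 0.0027 to 0.020), and the gain of Ccl6 was 1.74 (adjusted p = 0.0028) without RiboTag replicate 4 at 14 d. The P63 group included males whereas the injured group did not, and with sex as a covariate Ccl6, Ccl9 and Ccl12 were no longer called (adjusted p = 0.017, 0.015 and 0.038).

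Set side by side at 14 d, RiboTag levels of Ccl2 were 12.7, 9.6, 8.72, 11.1 and 8.03 CPM in mGfap and 20.5, 11.2, 15.7 and 8.87 CPM in Aldh1l1 mice. These ranges overlapped, and the difference was -0.43 (95% interval -1.31 to 0.45, adjusted p = 0.48). Ccl5 was 4.43, 4.33, 3.26, 3.37 and 5.04 CPM in mGfap RNA, a difference of -0.41 (-1.04 to 0.23), and Ccl7 was 4.21, 3.93, 2.3, 3.5 and 3.47 CPM, a difference of -0.82 (-1.70 to 0.06). The intervals leave room for a lower level in mGfap RNA. Ccl6, by contrast, was 4.22, 2.24, 1.71, 12.4 and 1.53 CPM in mGfap and 49.8, 67.1, 42.7 and 39.8 CPM in Aldh1l1 astrocytes, with no overlap and a difference of -3.42 ± 0.58 (adjusted p = 0.00015).

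Ccl8 was 0.954, 0.297, 0.705, 1.47 and 0.499 CPM in the mGfap libraries, also below every Aldh1l1 value, by -3.23 ± 0.46 (adjusted p = 1.7e-05). Ccl9 was lower by -3.60 ± 0.51 (adjusted p = 1.8e-05) and Ccl12 by -2.19 ± 0.60 (adjusted p = 0.0075), a call that was lost in 6 of 9 fits that each left out 1 library. Ccl3 (-1.98, adjusted p = 0.015) and Ccl4 (-1.68, adjusted p = 0.043) did not pass. The ranges of Ccl3 still did not overlap, with 6.91-13.9 CPM in the Aldh1l1 and 1.36-4.8 CPM in the mGfap libraries, while those of Ccl4 did. In all, 4 of the 9 genes differed between the lines at 14 d beside 23.3% of all genes. In flow-through RNA from these mice, edgeR called 0 of the 9 (1.48% of all genes), with 6 under an unadjusted p of 0.05 and 0 by DESeq2, and differences ran from -0.14 for Ccl3 to 0.91 for Ccl7.

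**Figure D4:**
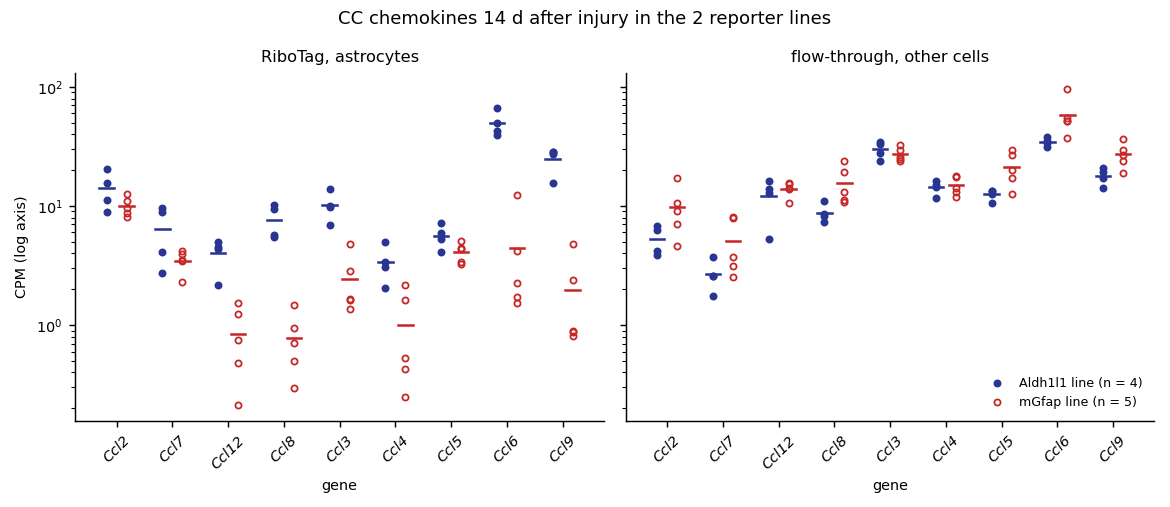
Level of each CC chemokine 14 d after SCI in CPM on a log axis, in RiboTag (left) and flow-through libraries (right), with filled points for 4 Aldh1l1 mice, open points for 5 mGfap mice and bars at the means. In RiboTag libraries the points of Ccl3, Ccl6, Ccl8, Ccl9 and Ccl12 do not overlap between the lines while those of Ccl2, Ccl4, Ccl5 and Ccl7 do.

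Against their own flow-through, mGfap RiboTag libraries at 14 d held less of 7 of the 9 genes (23.6% of all genes called lower), by between -2.43 ± 0.24 for Ccl5 and -4.37 ± 0.44 for Ccl8. Ccl2 did not differ by the test (-0.01, 95% interval -0.66 to 0.64) and was higher in the RiboTag library of 3 of 5 mice, and Ccl7 differed by -0.59 (-1.34 to 0.15). Uninjured at P63, 5 of the 8 genes tested were called and all 5 were lower in RiboTag RNA (35.2%), Ccl6 by -3.17 ± 0.29 and Ccl9 by -3.39 ± 0.24. With the mouse as a block Ccl7 was no longer called there (-2.18, adjusted p = 0.013), and without flow-through replicate 4 the count was 3. Per kilobase, Ccl2 made up 35.9% ± 5.59 of the family in injured mGfap RiboTag RNA, Ccl5 22.9% ± 6.98 and Ccl7 12.6% ± 2.65, of a sum of 35.5 ± 9.78 CPM per kb (n = 5). In CPM per kb the range of Ccl2 lay above that of Ccl5, and that of Ccl5 above that of Ccl7. As shares of the sum, Ccl2 (28.4% to 43.2%) overlapped Ccl5 (13.1% to 31.4%), which overlapped Ccl7 (9.04% to 15.9%).

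On the per-mouse scale, log2 ratios to flow-through in injured mGfap mice were -4.13 for Ccl6, -4.13 for Ccl9, -4.40 for Ccl8 and -4.30 for Ccl12, and that of the 14 myeloid genes was -4.06, with a range over mice of -4.90 to -2.93. The ratios of Ccl2 (0.15, from -0.64 to 0.79) and Ccl7 (-0.41, from -1.20 to 0.44) lay above that range in all 5 mice. Neutrophil genes stood at -4.29. The mGfap RiboTag libraries at 14 d also differed from the Aldh1l1 ones in a list of 6 oligodendrocyte genes, with 25206.2-38417.8 CPM against 1945.8-2605.2 CPM. This list was higher in RiboTag than in flow-through RNA in 5 of 5 injured mGfap mice (mean log2 ratio 1.15). In Aldh1l1 females at 14 d its mean ratio was -3.38. The mGfap RiboTag RNA at 14 d is therefore not that of astrocytes alone. The part of these differences in the chemokine values was not tested.

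In the uninjured state the lines differed in Ccl7, which was -2.60 ± 0.53 lower in mGfap RNA (adjusted p = 0.0016, beside 12.4% of all genes), and this call was lost with sex as a covariate (adjusted p = 0.040). When the injury changes of the lines were compared directly, 1 of the 9 genes was called (12.7% of all genes). Ccl12 changed less in the mGfap line, by -3.58 ± 0.93 (adjusted p = 0.0092), and the call was lost in 14 of 18 fits that each left out 1 library, with adjusted p from 0.0011 to 0.022, and with sex as a covariate (adjusted p = 0.057). Ccl2 and Ccl7 differed by 1.05 and 1.78 in the other direction and were not called, and the Ccl2 value was -0.08 without uninjured Aldh1l1 RiboTag replicate 2.

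Receptors for these ligands were present in the same Aldh1l1 libraries. Of 11 CC receptor genes, 7 could be tested in astrocytes at 2 d, and 4 were called higher (30.2% of all genes) and 1 lower, with a median of 4.66 beside -0.04 for all genes. Ccr1 rose by 7.85 ± 0.47 and Ccr2 by 5.89 ± 0.36. Ccr2 went from 0.724-1.9 CPM uninjured to 50.0-75.1 CPM at 2 d, and stood at 10.6-16.8 CPM at 70 d, when 5 of 7 receptors were called higher (23.9% of all genes), among them Ccr7 (4.58). Ccr8, the receptor of the late Ccl8, had 0 counts in all uninjured RiboTag libraries and a mean at least 5.5-fold above a floor of 3 counts per library at 70 d, with 2 to 30 counts. At 14 d Ccr1, Ccr2 and Ccr7 were higher in Aldh1l1 RiboTag than flow-through RNA, by 1.52 ± 0.19, 2.53 ± 0.22 and 2.52 ± 0.45, while in the mGfap line these 3 were lower, by -3.52 ± 0.48, -3.52 ± 0.43 and -3.74 ± 1.04. Between the lines at 14 d, 5 of 6 receptors were lower in mGfap RiboTag RNA (23.3% of all genes called in either direction), with a median of -4.22. Ccr2 is at the same time a member of the macrophage list, and receptors of this kind are classically leukocyte genes.

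Among 5 atypical receptors, which bind chemokines without classical signalling, only Ackr4 was called at 2 d, lower by -1.96 ± 0.64. Of all 18205 genes tested, 10933 were called in either direction at 2 d and 8253 at 70 d. At 70 d Ackr1 (0.91 ± 0.27) and Ackr3 (0.95 ± 0.10) were higher and Ackr4 lower (-4.70 ± 0.81). Of 12 other CC ligands, 9 could be tested at 2 d, and 3 were called higher (30.2% of all genes) and 2 lower, with a median of 0.27. The largest increase was that of Ccl24, an eosinophil attractant, from 0.0-0.0866 to 9.4-52.7 CPM (8.96 ± 0.62). Ccl22, a ligand of Ccr4, rose by 3.10 ± 0.54 at 2 d and by 4.19 ± 0.57 at 70 d, and Ccl17, of the same receptor, by 1.77 ± 0.50 at 2 d. At 70 d, 5 of these ligands were called higher (23.9% of all genes) and 0 lower, with a median of 1.07. Ccl24 was still 4.75 above uninjured at 70 d, and Ccl1, with 1 count in all uninjured RiboTag libraries, had a ratio of 131 (95% counting interval 23.5 to 5176.8). Ccl11, which lies inside the group of Ccl2 to Ccl8, held 0.816-3.11 CPM uninjured and 1.41-3.44 CPM at 2 d.

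Genes of NF-kB and cytokine signalling rose together, and their order relative to the chemokines was not tested. All 17 genes of a list of NF-kB and cytokine genes were called higher in Aldh1l1 astrocytes at 2 d (30.2% of all genes), with a median of 1.90, and 16 of them at 70 d (23.9%), with a median of 1.5. Flow-through RNA gained 16 of the 17 at 2 d (32.6% of all genes), with a median of 2.59. The cytokine Il1b rose by 6.17 ± 0.84 at 2 d and the Tnf receptor Tnfrsf1b by 5.31 ± 0.37. The largest increases at 70 d were those of Tnf (5.39), Il1a (4.91) and Tnfrsf1b (4.23). Tnf had 4 counts in uninjured astrocytes, and its ratio at 2 d was 181 (95% counting interval 70.6 to 664). In the mGfap line 13 of the 17 were higher at 14 d than at P63 (27.7% of all genes), and 10 of the 17 were lower than in Aldh1l1 astrocytes at 14 d (23.3% called in either direction), with a median of -0.85. Against their own flow-through, mGfap RiboTag libraries at 14 d had 9 of the 17 lower (23.6% of all genes) and 0 higher. The part of these genes in the chemokine changes was not tested.

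By Pearson's r of log2 CPM over the 58 Aldh1l1 female libraries, which share mice, times and depth, the genes most like each chemokine were searched among 17289 genes. The Ccr2 ligands were closest as follows, with Ccl2 to Clec4n (0.95), Bst1 (0.95) and Ccr1 (0.94), Ccl7 to Tpm3 (0.94), Pf4 (0.94) and Cyp4f18 (0.93) and Ccl12 to 1600010M07Rik (0.93), Fxyd5 (0.92) and Fcgr1 (0.92). Ccl8 was closest to Cxcr6 (0.93), Calhm6 (0.92) and Cela1 (0.92). Among the Ccr1 ligands, Ccl6 was closest to Dok2 (0.95) and Ms4a4a (0.94) and Ccl9 to Dok2 (0.96) and Ccr1 (0.95). Of the remaining genes, Ccl3 was closest to Klhl6 (0.98), Fcer1g (0.97) and Havcr2 (0.97), Ccl4 to Hmga2-ps1 (0.96), Gsdmd (0.96) and Ptpn18 (0.95) and Ccl5 to Slamf8 (0.87), Scara3 (0.85) and Slc39a4 (0.85), the least close partners of the 9. Within the family, r ran from 0.23 for Ccl5 and Ccl7 to 0.98 for Ccl6 and Ccl9. Both ends held genes of the same and of different chromosome groups, with 0.27 for Ccl5 and Ccl9, of the same group, and 0.93 for Ccl7 and Ccl9, of different groups.

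Sex was compared in Aldh1l1 astrocytes at 5 and 14 d. EdgeR called 0 of the 9 genes (0.0510% of all genes) and DESeq2 also 0, with 1 gene, Ccl5, under an unadjusted p of 0.05. Differences of males from females ran from -0.30 for Ccl4 to 0.64 for Ccl5. In males at 14 d Ccl5 was 17.1, 9.23, 5.21 and 5.9 CPM, and in females 5.31, 7.16, 5.95 and 4.15 CPM, so that the ranges overlapped.

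During postnatal development the family stayed low in mGfap RiboTag RNA. The sum of the 9 genes was 1.5 ± 0.946 CPM per kb at P0 (n = 4), 2.56 at P14, 2.15 at P35 and 2.22 ± 0.567 at P63 (n = 5), all below the 35.5 ± 9.78 measured 14 d after SCI in the same line. Between P0 and P63, edgeR called 0 of the 7 genes tested (50.2% of all genes), with Ccl12 under an unadjusted p of 0.05 and called by DESeq2 (1 of 7). All 4 P0 mice were labelled male, whereas P63 held both sexes. The coefficient of variation between libraries was 63.8% at P0 and 17.4% at P63, which limits what this comparison can detect. Ccl4 and Ccl8 had too few counts to be tested at these ages.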

How the data were processed

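The deposited table holds raw gene counts, which the authors made with Trimmomatic, HISAT2 (mm10) and featureCounts from paired-end poly-A libraries (versions not given in the sources used here). Small counts were mostly even (median 68.4% of counts from 1 to 20), so the mates of a pair appear to be counted separately and counting intervals are too narrow. Groups came from the sample labels. Genes with low counts were filtered per fit, and counts were tested with edgeR 4.0.16 (quasi-likelihood test, TMM) in R 4.3.3 at a Benjamini-Hochberg adjusted p under 0.01 over all genes tested, with SE in log2 units. DESeq2 1.42.0, no filter, fits of 2 groups alone, labelled sex, a replicate block and leaving out each library were alternatives. The test was tried on simulated data. By the study's methods both fractions come from the same tissue, and libraries of the same number in the titles were taken as the same mouse. Their deviations from group means correlated at 0.007 (28 d) to 0.386 (mGfap 14 d) by group. With 0 pairs above 0.1 at 2 d (mean 0.014) and at 28 d, the pairing there rests on the shared numbers alone. No pair of libraries agreed within sampling noise. The genes, lists and tests were chosen with earlier results of these data known. The genes named were the 9 chemokines, up to 3 genes per pathway list with the largest called changes at 2 d and at 70 d, and the 3 genes most like each chemokine. Ccl11 and the receptors given at 14 d were named after their values were seen. Within a group, libraries are from separate mice. Some genes that this rule selects are not reported here.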

Additional observations from a re-analysis of the deposited data

Results flagged for a closer look

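In 16 of 234 groups of libraries 1 value stood apart from the rest by Dixon's criterion, where chance alone gives about 1 in 20 (11.7 groups). In injured or uninjured Aldh1l1 RiboTag libraries these were Ccl4 in uninjured replicate 1 (0.0335 CPM), Ccl12 in uninjured replicate 2 (0.217 CPM), Ccl9 at 14 d in replicate 4 (15.7 CPM), Ccl9 in males at 5 d in replicate 3 (152.6 CPM) and Ccl3 in males at 14 d in replicate 1 (6.02 CPM). In flow-through they were Ccl4 at 2 d in replicate 1 (47 CPM), Ccl5 at 70 d in replicate 2 (5.26 CPM) and Ccl2 at P63 in replicate 5 (0.58 CPM). In mGfap RiboTag libraries they were Ccl6 14 d after SCI in replicate 4 (12.4 CPM), Ccl4 at P63 in replicate 1 (0.0316 CPM), Ccl8 at P63 in replicate 2 (0.0 CPM), Ccl8 at P21 in replicate 3 (0.0932 CPM), Ccl2 (0.406 CPM) and Ccl6 (1.96 CPM) at P0 in replicate 3, and Ccl3 (0.303 CPM) and Ccl7 (0.367 CPM) at P0 in replicate 2.

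In 28 cases the change after injury differed between RiboTag and flow-through RNA or between lines by edgeR's test of the difference itself. At 2 d the change was larger in RiboTag RNA, on the log2 scale, by 3.2 for Ccl2, 3.89 for Ccl6, 3.70 for Ccl9 and 2.53 for Ccl12, the last being 3.85 without uninjured RiboTag replicate 2. At 5 d it was larger by 3.04 for Ccl2, 3.22 for Ccl3, 3.23 for Ccl4, 2.90 for Ccl6, 3.10 for Ccl8, 2.47 for Ccl9 and 2.76 for Ccl12. The Ccl4 value was 6.04 without uninjured RiboTag replicate 1, and the calls of Ccl4 and Ccl8 at 5 d were lost in 9 and 8 of the fits that each left out 1 library. At 14 d it was larger by 2.67 for Ccl2, 1.93 for Ccl6, 4.29 for Ccl8, 1.96 for Ccl9 and 2.23 for Ccl12, the last being 3.55 without uninjured RiboTag replicate 2. At 28 d the values were 2.33 for Ccl2 and 3.38 for Ccl8. At 42 d they were 2.15 for Ccl2, 1.83 for Ccl6, 4.42 for Ccl8, 2.05 for Ccl9 and 3.01 for Ccl12. At 70 d they were 2.27 for Ccl2, 4.63 for Ccl8, 1.96 for Ccl9 and 2.71 for Ccl12. Between lines, the change of Ccl12 to 14 d was -3.58 in mGfap relative to Aldh1l1 astrocytes.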

How the results depend on the processing

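All 9 genes stayed above uninjured levels at every time, in RiboTag and flow-through RNA of the Aldh1l1 line, in each fit that left out 1 library. Counts of called genes moved by over 1.5 times in few comparisons. DESeq2 called 1 gene from 28 to 42 d, 8 between RiboTag and flow-through at P63, 2 between the uninjured lines, 3 for the change that differs between lines, and 1 between P0 and P63. Without a filter, 4 were called between RiboTag and flow-through at 5 d, as Ccl3, Ccl4 and Ccl6 were lost. With labelled sex as a covariate, 0 were called between the uninjured lines and 0 for the change that differs between lines. With the mouse as a replicate block, 8 were called between RiboTag and flow-through at 14 d, and apart from the calls named with their values above the block changed no other call. Numbers shared across times only name mice, with mean correlations of -0.001 in RiboTag and -0.009 in flow-through libraries.

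Leaving out 1 library gave 0 to 1 called genes from 28 to 42 d, 5 to 8 between RiboTag and flow-through at 14 d (8 without RiboTag replicate 4), 3 to 7 at P63, 1 to 3 for the change at 28 d that differs between RiboTag and flow-through, 0 to 4 for that between lines (4 without mGfap 14 d RiboTag replicate 4) and 0 to 1 between P0 and P63. Signs turned only for differences that were not called. Not all of these were small, as the Ccl4 change between lines (-1.22) turned in 2 of 22 alternatives. The RiboTag to flow-through difference of Ccl2 in injured mGfap mice was 0.00 without a filter, 0.10 with the block and -0.19 to 0.29 without 1 library. That of Ccl7 at 2 d ranged from -0.10 to 0.36, that of Ccl8 at 70 d from -0.06 to 0.36, and the Ccl2 change between lines from -0.08 to 1.30. The cause was not tested. The number of all genes called from 28 to 42 d was 2.41 times as large by DESeq2, 0.612 times with the replicate block and 0.00658 times in the fit of both groups alone, and from 42 to 70 d it was 0.0689 times in the latter. With sex as a covariate 729 rather than 2213 genes were called between uninjured lines and 1423 rather than 2258 for the change between lines, and DESeq2 called 607 rather than 278 between the lines in flow-through at 14 d. Ratios to uninjured Ccl3, Ccl4 and Ccl8 are limited by their few counts.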
